A study of Mus musculus with 48 samples.

Results

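Glycine receptors are chloride channels of 5 subunits that, when glycine binds, lower the excitability of the neuron that carries them. The genes described here are 7 of the 52636 in the table of transcript levels: Glra1, Glra2 and Glra3, which encode the alpha subunits that bind glycine, Glrb, which encodes the beta subunit, Gphn, which encodes the scaffold protein gephyrin, and Slc6a5 and Slc6a9, which encode the glycine transporters GlyT2 and GlyT1. They were taken by their symbols and matched to the Ensembl gene IDs of the table, and all 7 were found. They were chosen from earlier results of these same data, in which Glra1 differed between the genotypes in fluoxetine mice. Comparisons with fluoxetine libraries are therefore given as descriptions without p-values. Where genes are said to pass the threshold there, this only counts how many had an adjusted p under 0.05, and p-values are read only where no fluoxetine library took part.

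As background, glycine is the main fast inhibitory transmitter of the spinal cord and brainstem, whereas in the forebrain its receptors are fewer and often lie outside synapses. Alpha subunits form channels alone or together with the beta subunit, and the beta subunit binds gephyrin, which holds receptors at inhibitory synapses and does the same for many GABA-A receptors. GlyT2 fills the terminals of glycinergic neurons and marks these cells, which lie mostly in the brainstem and spinal cord. GlyT1 is found largely on glia and also sets the glycine that acts as a co-agonist at NMDA receptors.

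Transcripts were measured by RNA sequencing in punches of the right amygdala, 1 per mouse, of 48 female mice aged 8 to 11 weeks. The labels give the strain of all mice as C57BL/6NTac-Brd1, and the mice were either wildtype (WT) or heterozygous for a targeted deletion within Brd1 in all tissues (Brd1+/-), a gene whose protein takes part in histone acetylation. Mice of each genotype received saline (vehicle), the tricyclic drug imipramine (IMN) at 10 mg/kg, or fluoxetine (FLX), which blocks serotonin reuptake, at 5 mg/kg, which gave 6 groups of 8. Per the study's methods all mice, vehicle included, had been through behavioural tests, with forced swimming shortly before the brain was taken, and the study asked how Brd1 and antidepressants shape gene expression in this tissue.

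Levels are given in TPM, a share of each library's transcripts corrected for gene length, which allows levels to be compared between genes but keeps no sequencing depth, so the depth behind each value is unknown. A library held 23420 to 27252 genes with a level above 0. Brd1 was lower in Brd1+/- mice than in WT mice under each treatment, by 27.1% with vehicle, 36.6% with IMN and 28.5% with FLX. All 10 genes of a list of amygdala neuron markers reached 1 TPM in at least 1 library, but their summed level ran from 183 to 1930 TPM, and 19 of 20 transcription factors of the hypothalamus and preoptic area did so as well. Slc17a7, the vesicular glutamate transporter of cortex-like neurons, ran from 1.87 to 1346 TPM between punches. In punches, fewer cells of a type and less RNA per cell cannot be told apart.

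One library stood apart for these genes. In WT FLX replicate 6, 16 protein-coding genes had at least 1 TPM and at least 8 times the level of every other library, whereas no other library had more than 7 such genes. Slc6a5 was among them. So were Hoxb3 at 4.08 TPM, Hoxb5 at 1.75 TPM and Hoxc4 at 1.32 TPM, patterning genes of the hindbrain and spinal cord that were listed at 0 in the other 47 libraries, and Lbx1 at 2.90 TPM, a gene of dorsal spinal and hindbrain neurons that stood at or below 0.147 TPM elsewhere. These genes were picked after their values were seen. Several values that rest on this library are given with and without it.

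The genes lie on 7 chromosomes (GENCODE M21 on GRCm38). Glra1 is on chromosome 11 from 55514238 to 55608198 on the minus strand, Glra2 on chromosome X from 165129017 to 165327393 on the minus strand, Glra3 on chromosome 8 from 55940460 to 56130070 on the plus strand and Glrb on chromosome 3 from 80843599 to 80913660 on the minus strand. Gphn spans chromosome 12 from 78226379 to 78684772, Slc6a5 chromosome 7 from 49910146 to 49963856 and Slc6a9 chromosome 4 from 117834506 to 117875198, all on the plus strand. Exons of Slc6a9 overlap those of B4galt2 on the other strand, a gene with a median of 58.3 TPM, and exons of Gphn overlap those of Gm48226, with a median of 4.75 TPM. Whether reads were counted by strand is not stated, so the values of Slc6a9 and Gphn are uncertain to that extent.

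Upstream windows are shown for Glra2 and Glra3, whose levels moved together across libraries, and for Glrb, which was the highest of the 7 genes in the same punches. Each is the 250 bases before the RefSeq start of the gene (GRCm38.p6), 5′ to 3′ along the gene's strand, in lower case. Capitals mark matches on either strand to any of 3 motifs, the GC box GGGCGG, the box spelled CCAAT and the box spelled TATAAA. Each was searched on both strands, so a run of capitals may be the reverse complement of its motif, and overlapping matches were allowed.
Glra2, chrX:165327394-165327643, minus strand: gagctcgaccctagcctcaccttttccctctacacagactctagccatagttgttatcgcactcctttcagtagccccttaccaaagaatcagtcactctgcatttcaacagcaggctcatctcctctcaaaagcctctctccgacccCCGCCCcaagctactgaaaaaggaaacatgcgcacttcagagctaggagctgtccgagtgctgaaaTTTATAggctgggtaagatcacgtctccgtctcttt
Glra3, chr8:55940168-55940417, plus strand: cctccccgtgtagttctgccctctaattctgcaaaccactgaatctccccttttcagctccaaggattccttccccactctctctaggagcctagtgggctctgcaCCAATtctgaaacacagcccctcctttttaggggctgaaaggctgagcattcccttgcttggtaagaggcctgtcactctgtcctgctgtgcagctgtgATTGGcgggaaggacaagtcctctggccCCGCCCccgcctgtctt
Glrb, chr3:80913661-80913910, minus strand: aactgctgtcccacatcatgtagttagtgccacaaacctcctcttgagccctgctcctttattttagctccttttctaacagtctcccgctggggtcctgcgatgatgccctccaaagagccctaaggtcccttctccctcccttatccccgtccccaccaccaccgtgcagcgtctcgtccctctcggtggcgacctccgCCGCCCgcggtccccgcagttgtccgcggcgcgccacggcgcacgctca

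All 3 windows held the GC box 1 time, as did 32.7% of the 32851 RefSeq windows of the same length. The Glra3 window held the CCAAT motif 2 times, 1 on each strand, against 33.8% of all windows with at least 1, and the Glra2 window held the TATAAA motif 1 time, on the other strand, against 12.4%. The windows differed in their CG dinucleotides, with 20 for Glrb, 8 for Glra2 and 4 for Glra3, beside a median of 6 over all windows. Their G and C content was 62.4%, 50.4% and 56% in the same order, beside a median of 52.4%. These matches are letters in a window and say nothing of what binds there.

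Across the 48 libraries the order of mean level was Glrb, Slc6a9, Gphn, Glra2, Glra3, Glra1 and Slc6a5. Glrb, the beta subunit, was the most abundant at 145.02 ± 27.3 TPM (SD, n = 48) and exceeded Slc6a9 in 48 of 48 libraries. Slc6a9 and Gphn followed at 54.9 ± 33.3 and 47.6 ± 4.13 TPM (SD, n = 48) and could not be ordered, since Slc6a9 was the higher in 22 of 48 libraries. Gphn exceeded Glra2 in 43 libraries, Glra2 exceeded Glra3 in 47 and Glra3 exceeded Glra1 in 46. The genes differed as much in their spread as in their level. The coefficient of variation was 8.67% for Gphn and 18.8% for Glrb, against 49.7% for Glra2, 65.3% for Glra3 and 131% for Glra1.

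**Figure D1:**
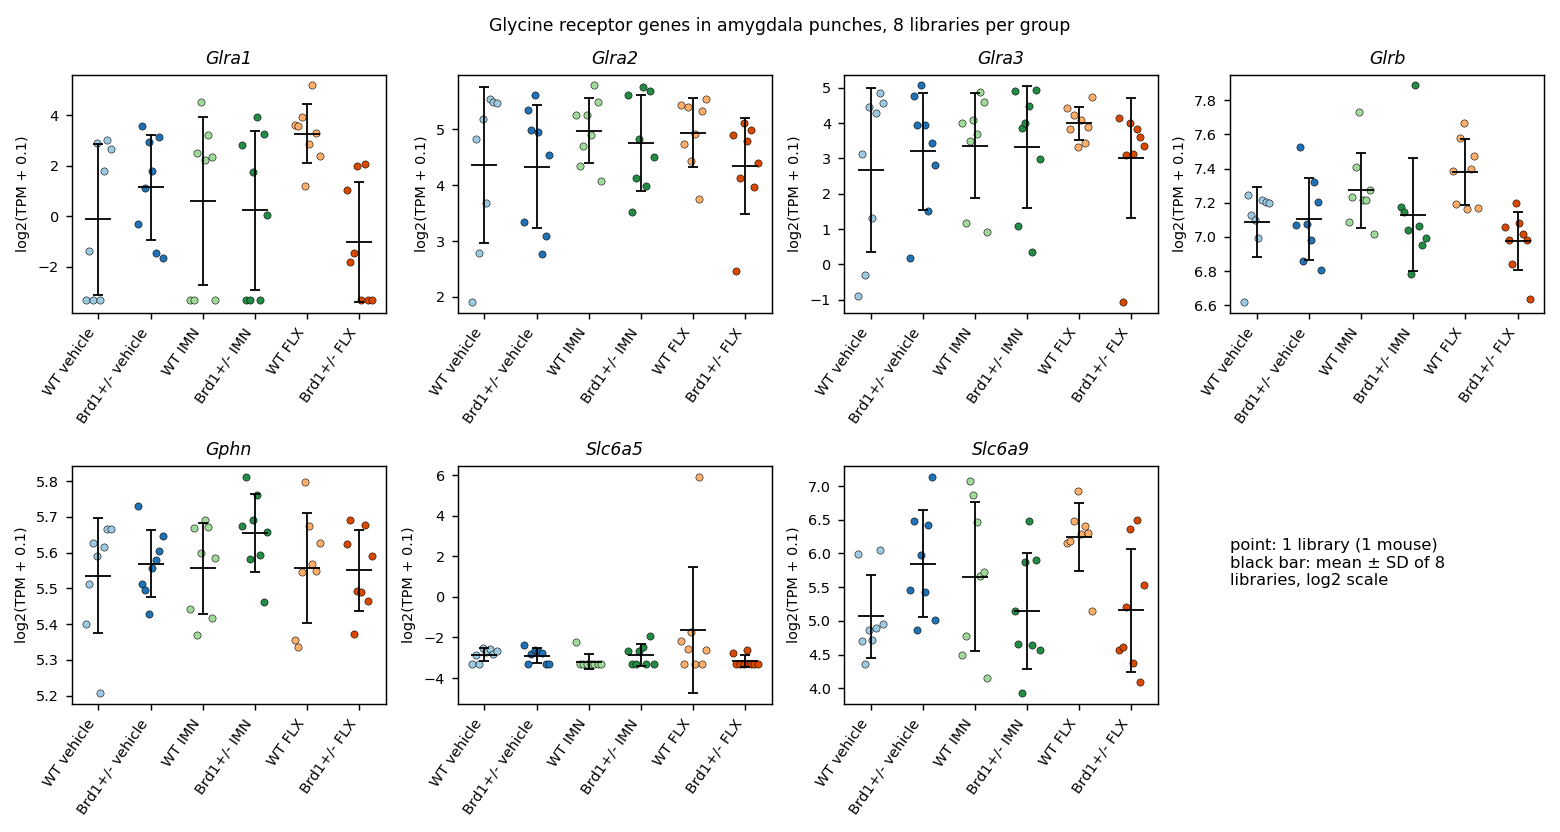
Level of the 7 genes in every library, as log2(TPM + 0.1), in the 6 groups of 8 mice; each point is 1 library, and the black bars give the mean and SD of the group on that scale, with axes that differ between genes. Glra1 reached the floor of the scale in 12 of 48 libraries, Gphn stayed between 36.8 and 56.1 TPM, and Slc6a5 was far above the floor in 1 library, WT FLX replicate 6.

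Of the alpha subunits, Glra2 dominated. The alpha 2 subunit is known as the main one of the developing brain. Glra2 was the highest of the 3 alpha subunit genes in 46 of 48 libraries and made up 65 ± 14.9% of their summed TPM (SD, n = 48), with Glra3 at 26.5 ± 9.53% and Glra1 at 8.5 ± 10.8%. Glra1 led in WT FLX replicate 6, with 60.1% of the sum, and Glra3 led in Brd1+/- vehicle replicate 7. The sum of the 3 alpha subunit genes was 33 ± 17.2% of the Glrb level (SD, n = 48) and between 4.17% and 73.7% in single libraries. By group, the Glra1 share was 4.39 ± 4.84% in WT vehicle, 9.43 ± 9.88% in Brd1+/- vehicle, 8.57 ± 9.88% in WT IMN, 5.63 ± 6% in Brd1+/- IMN, 20.1 ± 17.2% in WT FLX and 2.91 ± 3.29% in Brd1+/- FLX (SD, n = 8 each). The WT FLX mean includes replicate 6, and the highest share among the other WT FLX libraries was 22.6%.

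**Figure D2:**
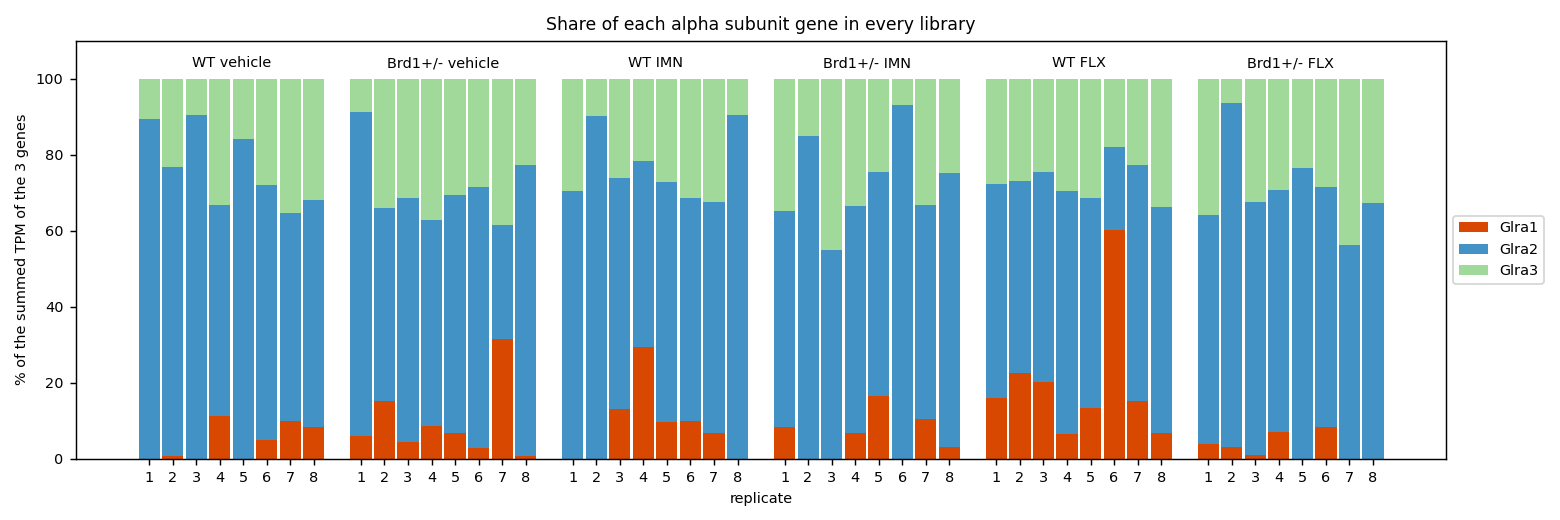
Share of Glra1, Glra2 and Glra3 in their summed TPM, in percent, for each of the 48 libraries, ordered by group and replicate. Glra2 takes the largest share in 46 bars, and the tallest Glra1 part, 60.1%, is in WT FLX replicate 6.

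Glra1 encodes the adult alpha subunit of spinal cord and brainstem, and changes in it cause startle disease. With vehicle, Glra1 stood at 0, 0.288, 0, 7.36, 0, 3.33, 8.12 and 6.17 TPM in WT mice. In Brd1+/- vehicle mice it stood at 0.7, 12, 2.07, 7.66, 3.39, 0.268, 8.79 and 0.219 TPM. Both groups held libraries with almost none and libraries with several TPM, and they overlapped. With IMN the WT values were 0, 0, 5.56, 22.9, 4.54, 9.2, 4.94 and 0 TPM. The Brd1+/- IMN values were 7.09, 0, 0, 3.25, 15.2, 0, 9.45 and 0.943 TPM. With IMN 3 libraries of each genotype were listed at 0, and the groups overlapped again.

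In FLX mice the pattern of Glra1 was another. The WT FLX values were 12.2, 11.9, 15.2, 2.18, 7.2, 36.4, 9.79 and 5.21 TPM, with no library listed at 0. The Brd1+/- FLX values were 1.93, 0.182, 0.26, 3.85, 0, 4.1, 0 and 0 TPM. The groups overlapped in replicate 4 of the WT mice, at 2.18 TPM, which lay below replicates 4 and 6 of the Brd1+/- mice. The other 7 WT libraries were above all 8 Brd1+/- libraries. The mean was 12.5 ± 10.5 TPM in the WT group and 1.29 ± 1.78 TPM in the Brd1+/- group (SD, n = 8 each). They differed 9.7-fold, or 7.06-fold without WT FLX replicate 6. On the log2(TPM + 0.1) scale the Brd1+/- minus WT difference was -4.29 (SE 0.86), and -4.01 without that library. These values chose the gene and are a description. In this contrast 1.54% of all genes tested passed an adjusted p of 0.05 in limma.

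Read against vehicle, Glra1 was higher by estimate in WT FLX mice and lower by estimate in Brd1+/- FLX mice. The log2 difference of Glra1 between FLX and vehicle was 3.39 (SE 1.05) in WT mice, where 5 of 8 FLX libraries were above the highest vehicle library, and -2.17 (SE 1.03) in Brd1+/- mice, where 4 of 8 FLX libraries were below the lowest vehicle library. All vehicle mice carry sample codes of a separate, lower series than all drug mice, so that drug and code series cannot be told apart in any comparison of a drug with vehicle. The comparisons also share libraries: FLX libraries of each genotype enter both the genotype comparison and the comparison with vehicle. The sample codes of the drug mice were cut here into a lower and an upper range. The labels do not give this cut, and it does not lie at the widest gap between codes. The mean of the FLX mice was 17.1 TPM in 3 WT and 1.59 TPM in 5 Brd1+/- mice of the lower range. It was 9.76 TPM in 5 WT and 0.792 TPM in 3 Brd1+/- mice of the upper range. Within each range every WT value lay above every Brd1+/- value, with the closest at 5.21 and 4.1 TPM in the lower and 2.18 and 1.93 TPM in the upper range. This separation rests on the cut. It put WT FLX replicate 4 in the upper range, and Brd1+/- FLX replicates 4 and 6, which exceeded it, in the lower. The values are those that chose the gene and are a description. The codes of the genotypes were mixed in the lower range only. In the upper range all WT FLX codes were above all Brd1+/- FLX codes, so genotype and code cannot be told apart there.

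Genes of the lists named for the hypothalamus and preoptic area and for subcortical glutamatergic neurons moved beside Glra1 in the FLX mice. Whether their transcripts came from cells inside or outside the amygdala was not tested. Lhx5 and Fezf1, transcription factors of the hypothalamus and neighbouring forebrain, were the 2 of 20 genes of the hypothalamic and preoptic list that passed the genotype threshold in FLX mice, of 10 that could be tested, and both were lower in Brd1+/- mice. Lhx5 had a median of 5.9 TPM in WT FLX libraries, with a range of 0.195 to 14.6 TPM, and was listed at 0 in 6 of 8 Brd1+/- FLX libraries, where it reached 0.538 TPM. The summed level of the 20 genes was 33.7 to 155.3 TPM in WT FLX and 5.42 to 74.9 TPM in Brd1+/- FLX, where 3 of the 20 were at 0 in every library. The 6 genes of subcortical glutamatergic neurons summed to 41.6 to 609 TPM in WT FLX and 9.73 to 216 TPM in Brd1+/- FLX. Slc17a6, the vesicular glutamate transporter that defines these neurons, was between 4.33 and 143 TPM in WT FLX and between 0.211 and 25.9 TPM in Brd1+/- FLX. Lists of the target region and its neighbour stood the other way by estimate, with none of their genes called. Of the 10 amygdala neuron genes 9 were higher in Brd1+/- FLX mice, with a median log2 difference of 1.24 and sums of 195 to 1585 TPM against 249 to 948 TPM in WT FLX. Of the 10 striatal projection neuron genes 9 were higher as well, with a median of 0.69 and sums of 286 to 11526 TPM against 296 to 3354 TPM. The part of these cells in the Glra1 values was not tested.

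The same markers ran with Glra1 where no FLX library took part. Over the 32 vehicle and IMN libraries, Pearson's r of Glra1 was 0.855 with Fezf1, 0.816 with Lhx5 and 0.788 with Slc17a6, on the log2 scale, as a description of libraries whose TPM columns share a nearly fixed total. The 2 highest Glra1 values of these libraries, 22.9 TPM in WT IMN replicate 4 and 15.2 TPM in Brd1+/- IMN replicate 5, came with 11.8 and 11.4 TPM of Lhx5 and with 10.8 and 7.95 TPM of Fezf1. WT FLX replicate 6 departed from this, with 36.4 TPM of Glra1 beside 1.5 TPM of Lhx5 and 2.42 TPM of Fezf1.

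**Figure D3:**
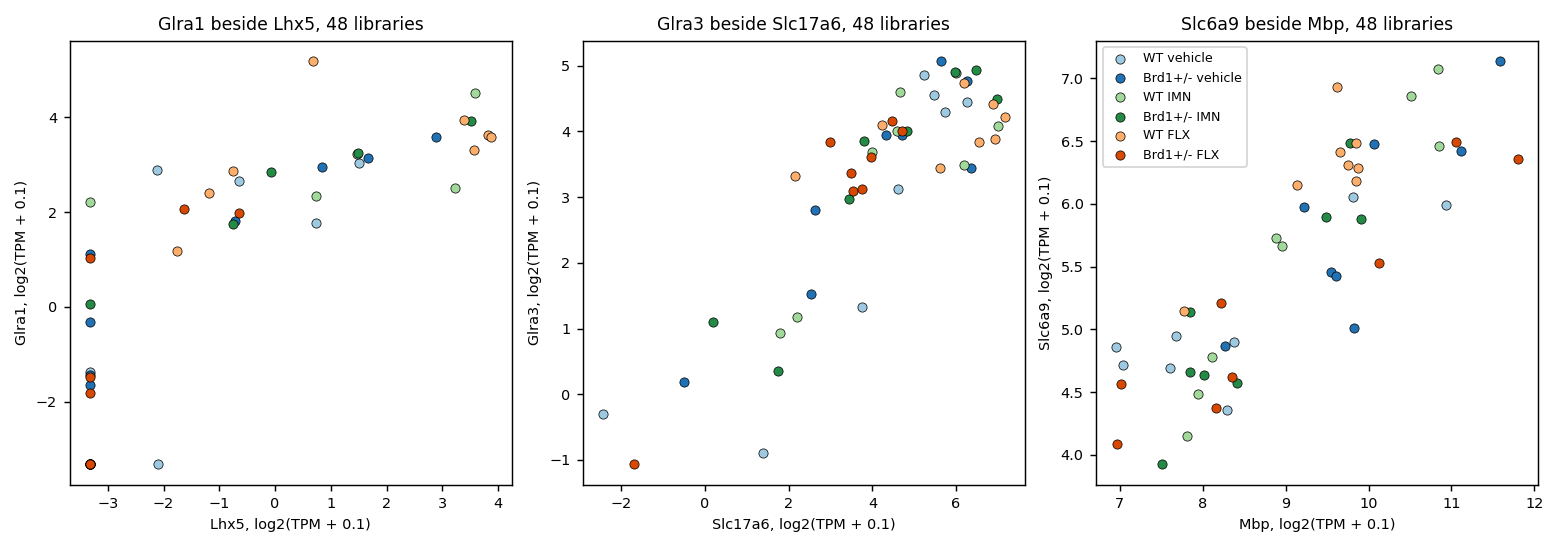
Glra1, Glra3 and Slc6a9 each beside a marker gene in the 48 libraries, both axes as log2(TPM + 0.1), with points coloured by group, against Lhx5, Slc17a6 and Mbp in turn. The points rise together in each panel (Pearson's r of 0.809, 0.861 and 0.857), and WT FLX replicate 6 is the highest point of the Glra1 panel.

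The 5 protein-coding genes whose pattern over the 48 libraries was most like that of Glra1, of 14241 candidates, were Vat1 (Pearson's r = 0.917), Uncx (0.917), Ece2 (0.915), Minar1 (0.906) and Rtl8a (0.902). Uncx encodes a homeobox transcription factor, Ece2 a protease that processes peptides and Vat1 a membrane protein of vesicles. All 5 coefficients were 0.906 or higher without WT FLX replicate 6.

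Glra2 was present at 3.66 TPM or more in every library. Its means were 28 ± 17.9 TPM in WT vehicle, 25 ± 15.7 TPM in Brd1+/- vehicle, 33.6 ± 12.9 TPM in WT IMN, 31.2 ± 17.5 TPM in Brd1+/- IMN, 32.9 ± 11.9 TPM in WT FLX and 22.8 ± 9.8 TPM in Brd1+/- FLX (SD, n = 8 each). The lowest and highest libraries were 3.66 and 46.8 TPM within WT vehicle alone, so that the range inside a group was wider than any gap between groups. In FLX mice 4 of 8 WT libraries were above the highest Brd1+/- library. Gng4, a G protein gamma subunit, had the pattern most like that of Glra2 (r = 0.917).

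Glra3 encodes the alpha 3 subunit, known from inhibitory transmission in spinal pain pathways. It ran from 0.377 TPM in Brd1+/- FLX replicate 2 to 33.5 TPM in Brd1+/- vehicle replicate 4. The group medians were 14.1 TPM in WT vehicle, 13 TPM in Brd1+/- vehicle, 14.4 TPM in WT IMN, 15.2 TPM in Brd1+/- IMN, 15.8 TPM in WT FLX and 11.2 TPM in Brd1+/- FLX. WT FLX was the most even group, with 9.88 to 26.6 TPM, and no other group had a lowest library above 1.8 TPM. Glra3 and Glra2 rose and fell together, with r = 0.876 over 48 libraries. Zfp941, a zinc finger gene, was most like Glra3 (r = 0.959).

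Glrb, the beta subunit, was high in every library. It was 98.2, 151.7, 139.8, 136.7, 127.6, 148.3, 147.3 and 146.6 TPM in WT vehicle. In Brd1+/- vehicle it was 134.1, 184.1, 116.1, 134.5, 126.1, 159.7, 147.6 and 111.6 TPM. These groups overlapped over most of their range. WT IMN libraries lay at 135.6, 150.3, 169.6, 212.1, 148.8, 148.6, 155.01 and 129.3 TPM. Brd1+/- IMN libraries lay at 144.2, 141.4, 131.7, 110.04, 236.7, 133.9, 123.7 and 127.4 TPM, of which 236.7 TPM in replicate 5 was the highest of all 48. In FLX mice the WT values were 167.1, 146.4, 191.5, 203.1, 143.2, 168.3, 177.9 and 143.6 TPM. The Brd1+/- FLX values were 133.02, 126.5, 114.5, 146.7, 135.2, 129.5, 126.4 and 99.4 TPM. All but 1 of the Brd1+/- libraries lay below the lowest WT library, and the means of 126.4 ± 14.2 and 168 ± 22.5 TPM (SD, n = 8 each) differed by -0.40 (SE 0.09) on the log2 scale, with or without WT FLX replicate 6. This difference belongs to the contrast that chose the genes and is given without a p. Nat8l, which makes N-acetylaspartate in neurons, was most like Glrb (r = 0.849).

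Gphn, the gephyrin scaffold, moved least. Its group means lay between 46.5 ± 4.85 TPM in WT vehicle and 50.4 ± 3.79 TPM in Brd1+/- IMN (SD, n = 8 each), and the highest library was 1.52 times the lowest. The gene most like it, Mterf2, a mitochondrial gene regulator, had an r of only 0.576.

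Slc6a5 was listed at 0 in 25 of 48 libraries and was at or below 0.202 TPM in 47. The one exception was WT FLX replicate 6, at 60.5 TPM. With 5 of 48 libraries at 0.1 TPM or more, Slc6a5 passed the filter on low values in no comparison and has no test, while the other 6 genes passed in all of them. Without that library the WT FLX mean was 0.0653 ± 0.0758 TPM (SD, n = 7). Slc47a1, an organic cation exporter, was most like Slc6a5 (r = 0.658), and the likeness rested on the same library, since r was 0.0871 without it.

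Slc6a9, the GlyT1 transporter, varied between 15.1 and 141 TPM. With vehicle it was 63.4, 25.8, 20.4, 29, 26.2, 29.8, 66.6 and 30.8 TPM in WT mice. In Brd1+/- vehicle mice it was 43.8, 89, 29.2, 62.7, 42.9, 85.5, 141 and 32.1 TPM. The Brd1+/- libraries were mostly higher, with 7 of 8 above the WT median, but the groups overlapped. With IMN the means stood the other way, at 63.8 ± 44.5 TPM in WT and 41.4 ± 25.4 TPM in Brd1+/- mice (SD, n = 8 each). In WT FLX mice it was 70.9, 72.5, 89.5, 121.9, 77.9, 85, 79.2 and 35.4 TPM. In Brd1+/- FLX mice it was 23.6, 24.4, 36.9, 81.9, 20.7, 89.9, 16.9 and 46 TPM. Most WT FLX libraries were high, and 7 of 8 were above the highest WT vehicle library, while the Brd1+/- FLX libraries split between low and high values. The FLX means were 79 ± 23.9 TPM in WT and 42.5 ± 28.5 TPM in Brd1+/- mice (SD, n = 8 each). On the log2 scale they differed by -1.08 (SE 0.34).

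Myelin genes varied beside Slc6a9. Its r over the 48 libraries was above 0.5 with all 8 genes of the oligodendrocyte list, with a median of 0.872, and was 0.857 with Mbp, which encodes myelin basic protein. Lgi3, which encodes a secreted protein, was the gene most like Slc6a9 (r = 0.967). With vehicle, the oligodendrocyte list summed to 697 to 11241 TPM in WT and 2352 to 16494 TPM in Brd1+/- mice. With IMN it summed to 1396 to 11193 TPM in WT and 1191 to 6948 TPM in Brd1+/- mice. With FLX it summed to 2016 to 8670 TPM in WT and 919 to 17417 TPM in Brd1+/- mice. The mean FLX sum was 5667 ± 2027 TPM in WT and 6259 ± 6583 TPM in Brd1+/- mice (SD, n = 8 each), so the mean was the higher in Brd1+/- mice. The direction depended on the scale. On the log2 scale all 8 genes were lower in Brd1+/- FLX than in WT FLX mice, with a median difference of -0.56. All 8 were also negative in the genotype by FLX interaction, with a median of -2.07. No gene of the list was called in either contrast. None of the 8 genes was at 0 in any group. The astrocyte list, of a cell type that also uses GlyT1, had 6 of 8 genes with an r above 0.5 with Slc6a9 and 1 with an r below -0.5. The part of these cells in the Slc6a9 values was not tested.

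The genotype comparison with vehicle asked whether Brd1+/- mice differ at baseline. None of the 6 tested genes passed an adjusted p of 0.05 in limma, where 172 of 24279 genes, 0.708%, did so. Slc6a9 was higher in Brd1+/- mice by 0.78 on the log2 scale (SE 0.33, 95% interval 0.08 to 1.48, unadjusted p = 0.0304, limma adjusted p = 0.506). Beside it all 8 oligodendrocyte genes were higher, with a median log2 difference of 1.51 and an unadjusted p under 0.05 for each, though none passed after adjustment. Glra1 differed by 1.27 (SE 1.19, limma adjusted p = 0.855), with an interval from -1.25 to 3.79 that leaves room for a large change either way. The intervals were narrow for Gphn, from -0.12 to 0.19, and Glrb, from -0.22 to 0.25. The median difference of the 6 genes was 0.28, beside 0.03 over all genes tested.

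With IMN, none of the 6 genes differed between genotypes past the threshold, as against 4 of 23581 genes, 0.017%, overall. Glra1 differed by -0.37 (SE 1.5), Slc6a9 by -0.50 (SE 0.46) and Glrb by -0.14 (SE 0.14), each with a limma adjusted p of 1. The median of the 6 was -0.18, beside 0.01 over all genes. With vehicle and IMN libraries fitted together, which gives 16 mice a genotype, none passed either, against 18 of 26673 genes, 0.0675%. The interval of Glrb was then from -0.24 to 0.12 and that of Gphn from -0.03 to 0.16 on the log2 scale.

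The effect of IMN itself was asked within each genotype, with vehicle libraries that the genotype comparison also uses and in mice whose sample codes are of another series than those of the vehicle mice, which cannot be told apart from the drug. In WT mice none of the 6 genes passed and neither did any of the 23644 genes tested (0%), although 1084 of them had an unadjusted p under 0.05 in limma. All 6 genes were higher by estimate, from 0.02 for Gphn to 0.72 for Glra1, with a median of 0.60 beside -0.00243 over all genes, and none had an unadjusted p under 0.05. In Brd1+/- mice none of the 6 passed, against 188 of 24225 genes, 0.776%. Slc6a9 was 0.70 lower on the log2 scale by estimate (SE 0.38, limma adjusted p = 0.627), with all 8 oligodendrocyte genes also lower, at a median of -1.03.

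Whether IMN acted differently in the genotypes was tested as an interaction, in which 143 of 26673 genes, 0.536%, passed and none of the 6 did. Slc6a9 had the lowest p, with an interaction of -1.28 (SE 0.58, unadjusted p = 0.0357, limma adjusted p = 0.506), and all 8 oligodendrocyte genes had negative interactions with a median of -1.95. In these 6 comparisons, 36 tests in all, no gene of the set passed after adjustment and 2 had an unadjusted p under 0.05, both of them Slc6a9. Over all genes tested, such an unadjusted p was found for 2068 of 24279 for genotype with vehicle and 2464 of 26673 in the IMN interaction, the comparisons of those Slc6a9 values.

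For the FLX contrasts the counts describe how the set was chosen. Between genotypes 2 of the 6 genes, Glra1 and Glrb, were below the threshold, where 364 of 23635 genes, 1.54%, were (39 higher and 325 lower, or 52 and 187 with median-ratio scaling). FLX against vehicle in WT mice gave none of the 6, with 79 of 23557 genes, 0.335%, called. FLX against vehicle in Brd1+/- mice gave none of the 6, with 178 of 24336 genes, 0.731%, called. The genotype by FLX interaction gave 1 of the 6, Slc6a9 at -1.86 (SE 0.49), with 455 of 26657 genes, 1.71%, called. The estimate for Glra1 there was larger, at -5.56, with an SE of 1.53, and was -5.29 without WT FLX replicate 6. When single libraries were left out in turn, the count between genotypes ran from 0 to 3 and that of the interaction from 0 to 2, and both stayed at 2 and 1 without WT FLX replicate 6.

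**Figure D4:**
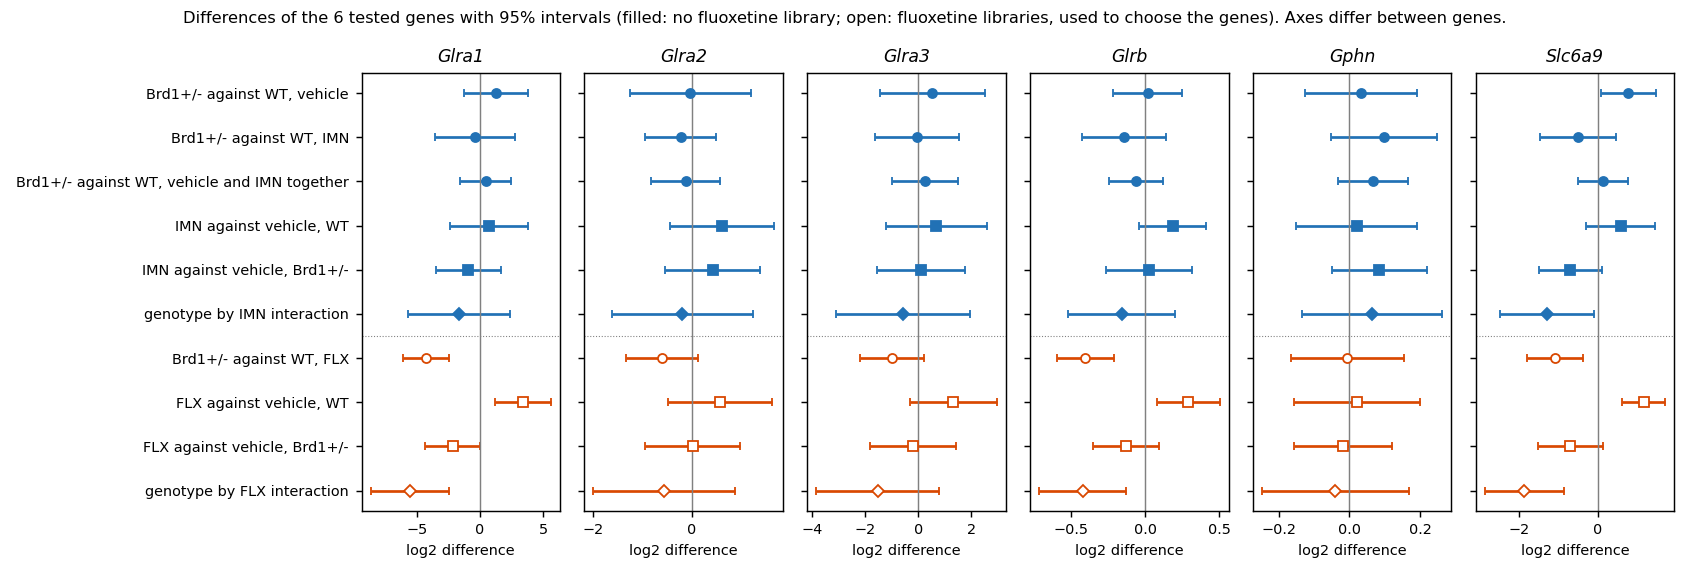
Log2 differences of the 6 tested genes with 95% intervals, 1 panel a gene and 1 row a comparison, with filled symbols where no FLX library took part and open symbols where the contrast was used to choose the genes; horizontal axes differ between genes. Every filled interval spans 0 except 2 of Slc6a9, and the Glra1 intervals are several times as wide as those of Gphn and Glrb.

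How far the set moves as one was asked by the correlation of Glra1 with each of the other 6 genes, on log2(TPM + 0.1). Over all 48 libraries, which include those that chose Glra1, Pearson's r was 0.701 with Slc6a9, 0.699 with Glra3, 0.608 with Glra2, 0.547 with Glrb, 0.297 with Slc6a5 and 0.0625 with Gphn. Without WT FLX replicate 6 r with Slc6a5 was 0.237. These values are given as a description.

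In the 32 vehicle and IMN libraries, p-values came from 100000 two-sided permutations and were adjusted over the 6 pairs, where 1e-05 is the smallest raw p they can give. Glra3 had an r of 0.791 and a rho of 0.79 (Spearman) with Glra1 (permutation p of 1e-05 each, adjusted 6e-05 and 3e-05). Glra2 had an r of 0.671 and a rho of 0.711 (permutation p of 2e-05 each, adjusted 6e-05 and 4e-05). Slc6a9 had an r of 0.673 and a rho of 0.726 (permutation p of 6e-05 and 1e-05, adjusted 0.00012 and 3e-05). Without the 2 libraries farthest from the Glra1 median, both listed at 0, r was 0.767, 0.618 and 0.712 in that order. Within the 16 vehicle libraries r was 0.869 with Glra3, 0.708 with Glra2 and 0.399 with Slc6a9 (adjusted permutation p of 0.00012, 0.00852 and 0.189). Within the 16 IMN libraries r was 0.764, 0.796 and 0.853 (adjusted permutation p of 0.00154, 0.00154 and 0.00066). Glra1 thus ran with the other alpha subunit genes within both treatments, and with Slc6a9 past the threshold within IMN but not within vehicle, a difference that was not tested. How many of all genes ran with Glra1 to this degree was not counted, so these relations are not read as particular to the set.

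The relation of Glra1 to Glrb did not hold under another scaling. Over the 32 libraries r was 0.46 and rho 0.446 (permutation p = 0.00743 and 0.0121, adjusted 0.0111 and 0.0181), and r was 0.415 without the 2 farthest libraries. With median-ratio scaling r was 0.156 (permutation p = 0.396), and within the 16 vehicle and the 16 IMN libraries r was 0.471 and 0.477 (adjusted permutation p of 0.131 and 0.0921). For Gphn r was 0.116 and rho 0.106 (permutation p = 0.531 and 0.563), with an r of -0.336 under median-ratio scaling (permutation p = 0.0608). For Slc6a5 r was 0.248 and rho 0.238 (permutation p = 0.171 and 0.188). Each pair of values comes from the same punch and shares its makeup of cells, and the part of the markers given above in these correlations was not tested. Slc6a9 and Glra2 had an r of 0.174 with each other over the 48 libraries.

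The wider pathway was read from 24 other genes of glycine signalling and the gephyrin scaffold, all of which could be tested. With vehicle, with IMN, within either genotype for IMN and in the IMN interaction none of the 24 passed, and their median log2 difference lay between -0.06 and 0.03. Among them, Glra4, a further alpha subunit gene, was low, with group means of 0.398 to 1 TPM. Nlgn2, the adhesion protein of inhibitory synapses, had group means of 152 to 178 TPM, and Dynll2, a dynein light chain that binds gephyrin, 469 to 550 TPM. Slc32a1, the vesicular transporter that loads both GABA and glycine, had group means of 153 to 207 TPM. In FLX mice 1 of the 24 was lower in Brd1+/- mice past the threshold that 1.54% of all genes passed, Iqsec3, a partner of gephyrin at inhibitory synapses, at 111 ± 14.7 TPM in WT and 64.6 ± 20 TPM in Brd1+/- mice (SD, n = 8 each, log2 difference -0.84, SE 0.18). No other of the 24 passed there, and their median was -0.22, beside -0.06 over all genes. Gldc, the glycine-cleaving decarboxylase of mitochondria, was the 1 gene of the list called in the FLX interaction, where 1.71% of all genes were, at 1.59 (SE 0.41), with 7.26 ± 3.57 TPM in WT FLX and 14.6 ± 3.99 TPM in Brd1+/- FLX (SD, n = 8 each), against 14.8 ± 6.01 and 10.8 ± 3.2 TPM with vehicle.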

How the data were processed

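The authors deposited TPM values for 48 libraries, 1 column each. Per the study's methods and processing notes, reads were trimmed with Trimmomatic, aligned to GRCm38 with HISAT2 2.1.0 and quantified with StringTie 1.3.4. TPM keeps no depth, so no counting interval was computed and the number of mice limits precision. The members, gene lists and tests were chosen with earlier results of these data known.

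Groups came from the sample labels. Values were transformed to log2(TPM + 0.1), so fold changes of low genes are understated, and genes with at least 0.1 TPM in at least 8 libraries of a fit were tested two-sided with limma 3.58.1 (R 4.3.3; eBayes with trend, Benjamini-Hochberg adjusted p under 0.05 called) in place of the authors' count test. Gene symbols matched 52403 of 52636 IDs, and 6 of the 7 genes had a RefSeq upstream window, Glra1 having none. On simulated data the code was tested first. Named genes were the 7 members, the 5 protein-coding genes most like Glra1 and the 1 most like each other member by Pearson's r (at least 0.1 TPM in 8 libraries and a group mean of 1 TPM), and up to 4 called genes per list. Alternatives were pseudocounts of 0.01 and 1, other filters, median-ratio and quantile scaling, no trend, 1 fit of 48 libraries, a replicate block, a term for sample code ranges and leaving out each library. Added after seeing the data were correlations without WT FLX replicate 6 and in the 32 libraries without FLX, also with median-ratio scaling, without the 2 farthest libraries and within each treatment.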

Additional observations from a re-analysis of the deposited data

Results flagged for a closer look

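In groups of 8, a library was singled out when its gap to the nearest other library, as a share of the group's whole range in TPM, was above Dixon's 95% critical value. Of 42 groups of values, 6 held such a library. The critical value is set to flag about 1 group in 20 of normally distributed values. TPM values with many zeros are not of that kind, so no excess is read from the 6. Glra1 was 22.9 TPM in WT IMN replicate 4, with the next library at 9.2 TPM, and 36.4 TPM in WT FLX replicate 6, with the next at 15.2 TPM. Slc6a5 was 60.5 TPM in WT FLX replicate 6, with the next at 0.202 TPM. It was 0.112 TPM in WT IMN replicate 1 while the other 7 libraries were listed at 0, which makes the gap the whole range by construction. Glrb was 237 TPM in Brd1+/- IMN replicate 5, with the next at 144 TPM, and 98.2 TPM in WT vehicle replicate 1, with the next at 127.6 TPM.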

How the results depend on the processing

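In the 6 comparisons without FLX libraries, no alternative and no left-out library gave a call for any of the 6 genes. Estimates near 0 changed sign for Glrb, to -0.0113 for genotype with vehicle under median-ratio scaling and to -0.0025 for IMN in Brd1+/- mice under quantile normalization. Leaving out each library in turn gave, for genotype with vehicle, -0.38 to 0.19 for Glra2, -0.0497 to 0.0602 for Glrb and -0.0133 to 0.0540 for Gphn; for genotype with IMN, -0.93 to 0.19 for Glra1 and -0.38 to 0.39 for Glra3; for IMN in WT mice, -0.0269 to 0.0467 for Gphn; for IMN in Brd1+/- mice, -0.31 to 0.54 for Glra3 and -0.0825 to 0.0857 for Glrb; for vehicle and IMN together, -0.00499 to 0.47 for Glra3; and for the IMN interaction, -0.42 to 0.16 for Glra2.

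In the FLX genotype comparison, where 2 genes were called, 1 was called without the filter, with median-ratio scaling, quantile normalization, no trend or the code range term, and 0 with 1 fit of 48 libraries. Glrb kept its call in 3 of 10 alternatives and in 6 of 16 fits with a library left out. Glra1 kept its call in 8 of 10 and in 9 of 16. Leaving out a library gave 0 to 3 calls, and Glra1 was no longer called without WT FLX replicate 1, 2, 3 or 7 or Brd1+/- FLX replicate 5, 7 or 8, although its difference stayed between -4.73 and -3.96. Over the other alternatives, other pseudocounts included, the Glra1 difference ran more widely, from -5.65 to -2.59. With a library left out, FLX in WT mice gave 0 to 1 calls and the FLX interaction 0 to 2. The interaction gave 0 calls without the filter, with the TPM filter of 1, with median-ratio scaling, quantile normalization or 1 fit of 48 libraries. The cause was not tested. For the correlations over 48 libraries, median-ratio scaling took r of Glra1 with Gphn to -0.311 and with Glrb from 0.547 to 0.298. Of the 6 genes 4 had an adjusted permutation p under 0.05 over the 32 libraries without FLX. With median-ratio scaling of those 32 the count was 3, and r with Gphn was -0.336. The count was 2 within vehicle and 3 within IMN, where r with Gphn was -0.0563. The share of all genes with such a p was not computed, so none of these counts is read as particular to the set.

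The same replicate number does not mark the same litter or day in the labels, and same-numbered libraries did not deviate together (r from -0.261 to 0.313, at most 4 of 8 pairs above 0.1). A replicate block gave 0 of the 6 genes called in every comparison, FLX genotype and FLX interaction included, and 46 in place of 364 genes overall for FLX genotype.

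The counts over all genes, which the percentages beside the members rest on, moved as well. Over these alternatives, the replicate block included, the 172 genes called for genotype with vehicle became as few as 24 and, with 1 fit of 48 libraries, as many as 1.46% of those tested, the 364 with FLX became as few as 29, the 4 with IMN 4 to 5 and the 18 with vehicle and IMN together 9 to 137. The 188 called for IMN in Brd1+/- mice became 23 to 439, the 178 for FLX in Brd1+/- mice 24 to 415, the 79 for FLX in WT mice became 0 with the replicate block and 0.685% of those tested with the TPM filter of 1, the 143 of the IMN interaction 15 to 212 and the 455 of the FLX interaction 259 to 481. IMN in WT mice gave 0 under each of them.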

Other observations

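A few other libraries held genes of regions outside the amygdala, chosen here after their values were seen. Brd1+/- vehicle replicate 7 had 149 TPM of Slc6a3, the dopamine transporter, 4.6 TPM of Pitx3 and 25.3 TPM of Chrna6, genes of midbrain dopamine neurons, whose highest values elsewhere were 4.3, 0.356 and 2.22 TPM. The same library had 8.79 TPM of Glra1, 8.43 TPM of Glra2 and 10.7 TPM of Glra3, the library where Glra3 led, and the highest Slc6a9 of all, 141 TPM. Brd1+/- IMN replicate 5 had 3.71 TPM of Crx, 5.76 TPM of Tph1 and 8.95 TPM of Pde6g, genes of the pineal gland and retina, with at most 0, 0.716 and 0.663 TPM elsewhere, and it was the library with 237 TPM of Glrb and 15.2 TPM of Glra1.

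The chloride transporters that set the direction of glycine and GABA currents differed in evenness. Slc12a5 (KCC2), which exports chloride from mature neurons, had group means between 295 ± 64.7 TPM in Brd1+/- FLX and 354.97 ± 40.6 TPM in WT FLX. Slc12a2 (NKCC1), which imports chloride, had group means between 35.7 ± 15.5 TPM in Brd1+/- IMN and 64 ± 25.3 TPM in Brd1+/- vehicle (SD, n = 8 each). With IMN in Brd1+/- mice Slc12a2 was 0.86 lower on the log2 scale by estimate (SE 0.26, limma adjusted p = 0.233).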
